A study of Mus musculus with 14 samples.

Results

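The 37 genes described here encode proteins of the cytosolic ribosome, 23 of the large subunit and 14 of the small subunit. They were taken by name from the gene column of the deposited count files, where all 37 were found among 23284 genes. The 14 libraries came from primary tumours of genetically engineered mice with small cell lung cancer, a neuroendocrine lung carcinoma. In 7 tumours the labels give the genotype Rb1/Trp53 (called RP), and in 7 others Rb1/Trp53/Crebbp (called RPC), so loss of Rb1 and Trp53 is shared by both groups. Crebbp is a histone acetyltransferase, and the design asked which genes it regulates in these tumours. The labels do not give the Cre driver, the age of the mice, the deleted exons, a batch, or whether the tumours of a group came from different mice, so a p-value covers no more than the spread among these libraries.

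Counts in genes came to between 10060969 and 24052799 per library, and all 37 ribosomal protein genes had enough counts to be tested. Levels are given in CPM, the usual counts-per-depth scale with library sizes adjusted by the trimmed mean of M values (TMM). Crebbp itself lay between 59.3 and 97.0 CPM in the RP group and between 57.8 and 69.8 CPM in the RPC group; a count over the whole gene includes undeleted exons and does not check the labels. RPC tumours 3, 5 and 6 stood apart. All 10 macrophage markers were lower in these 3 than in each of the other 11, with a summed level of 5.13 to 8.56 CPM against 492 to 2083 CPM. Of the 8 endothelial markers 7 were lower there, of 9 T and NK cell markers 7, and of 8 fibroblast markers 5; Emr1, Cdh5, Emcn, Cldn5, Cd3e, Nkg7 and Klrd1 were at 0 counts in all 3. The sum of 9 small cell lung cancer markers, such as the neural adhesion molecule Ncam1 and the secretory granule protein Chga, was 4247 to 4628 CPM in these 3 and 3561 to 9972 CPM elsewhere. The summed markers were thus high in every library, though a sum does not show each marker singly. Of the 7 RPC tumours, 0 were above the RP median sum of 6221 CPM, with RPC tumour 4 at 6218 CPM. The sum weighs abundant genes such as Calca, at 2257 ± 2079 CPM in the RP and 523 ± 816 CPM in the RPC group (mean ± SD, n = 7). By the median over the 9 markers of each gene's log2 deviation from its own median, 3 of the 7 were above the RP median. A positive log2 fold change was fitted for 3 of the 9, Ncam1 among them. In bulk tumour RNA, fewer cells of a type and less RNA per cell cannot be told apart.

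Cytosolic ribosomes are assembled in the nucleolus from ribosomal RNA and about equal amounts of each ribosomal protein, most of which are present as a single copy per ribosome. The genes lie scattered over the chromosomes, yet their mRNAs share a start with a cytosine and a run of pyrimidines, the terminal oligopyrimidine or TOP motif, through which mTOR and the RNA-binding protein Larp1 control their translation. MYC-family transcription factors, whose genes are often amplified in small cell lung cancer, are known regulators of ribosome production.

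The annotated start is shown for 6 members that the results return to, 5 of them from the few windows that begin with C and a run of pyrimidines, taken from RefSeq promoter windows of GRCm38.p6 (the submitters' processing notes name mm9, so these coordinates are not those of the counted reads). Each sequence gives 30 bases before the annotated start and 30 bases from it, 5′ to 3′ on the gene's strand. Capitals mark the run of C and T that begins at the annotated start; Rps6 and Rpl15 had the largest log2 fold changes between genotypes, Rpl28 was 1 of the 5 members of smallest p, Rpl38 had the smallest log2 fold change, Rplp2 stands for the stalk, and Rpl22 is a member with no such run at either of its annotated starts.
Rps6 (chr4:86857338-86857397, minus strand): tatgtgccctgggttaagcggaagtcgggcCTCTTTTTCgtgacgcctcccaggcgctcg
Rpl15 (chr14:18270957-18271016, minus strand): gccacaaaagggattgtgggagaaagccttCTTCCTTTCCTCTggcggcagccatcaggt
Rpl28 (chr7:4792935-4792994, plus strand): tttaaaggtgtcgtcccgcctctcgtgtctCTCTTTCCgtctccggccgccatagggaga
Rplp2 (chr7:141447621-141447680, plus strand): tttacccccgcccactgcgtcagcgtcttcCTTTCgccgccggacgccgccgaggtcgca
Rpl38 (chr11:114668550-114668609, plus strand): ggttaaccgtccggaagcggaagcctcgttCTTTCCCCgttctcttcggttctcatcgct
Rpl22 (chr4:152325696-152325755, plus strand): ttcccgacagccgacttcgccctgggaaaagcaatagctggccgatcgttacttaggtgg
RefSeq windows were found for 29 of the 37 genes, 36 windows in all, with windows of the same gene overlapping in some cases. A start base C followed by at least 4 pyrimidines was found in 7 of the 36 windows (19.4%), against 2.51% of 32851 promoter windows of all genes. Most windows of the members thus lacked it at the annotated start base itself. A looser match, C followed by at least 6 pyrimidines within 50 bases of the start, was in 29 of the 36 windows (80.6%) against 40.7% of all windows. Rpl22 was among the genes with this looser match. The letters CCGGAAG, a core bound by ETS-family factors, were searched on both strands of the full windows (250 bases before to 50 after the start). They were in 11 of 36 windows (30.6%) against 8.86% of all windows. AAGATGGC, the core of the YY1 motif, was in 2.78% against 2.75%, and CACGTG, the E-box that MYC binds, in 11.1% against 7.15%. These are matches of letters to annotated starts, which can lie some bases from the start used in the tumours.

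The ribosomal protein genes were high together in some tumours and low together in others. For each library a score was taken as the median, over the 37 genes, of the log2 CPM minus that gene's median over the 14 libraries. In RP tumours 1 to 7 the scores were -0.14, -0.64, 1.16, -0.31, -0.18, -0.50 and 0.13. In RPC tumours 1 to 7 they were 1.07, 0.44, 0.79, 0.78, -0.11, 0.017 and -0.29. RP tumour 3 was the highest of all 14 and RP tumour 2 the lowest, a range of 1.8 log2 units or 3.48-fold. All 37 genes were above their median in RP tumour 3 and RPC tumours 1, 3 and 4, 36 in RPC tumour 2 and 28 in RP tumour 7. In RP tumour 2 none was, and in RP tumours 5 and 6 only 1 gene was.

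**Figure D1:**
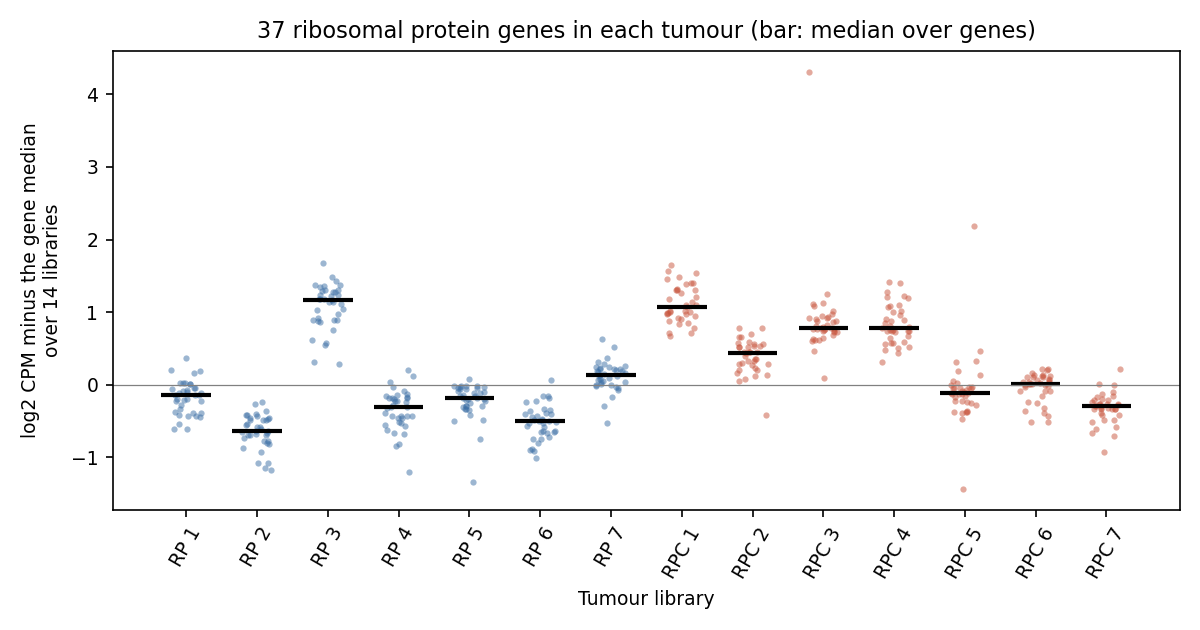
Deviation of each of the 37 genes from its own median over the 14 libraries (vertical axis, log2 CPM units) by tumour (horizontal axis), 1 point per gene, with RP in blue and RPC in red; bars are medians over genes. The genes of a tumour form a tight column in most libraries, centred at 1.16 in RP tumour 3 and at -0.64 in RP tumour 2, with Rps6 far above the others in RPC tumours 3 and 5.

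Summed over the 37 genes, it took 1.56, 1.16, 3.42, 1.45, 1.56, 1.21 and 1.97% of the gene counts in RP tumours 1 to 7. In RPC tumours 1 to 7 it took 3.59, 2.40, 4.10, 3.07, 1.801, 1.71 and 1.53%. The share was highest in RPC tumour 3, where the other 36 genes took 2.78% and Rps6 the rest. Without Rps6, RPC tumour 1 was the highest at 3.42% and RP tumour 2 the lowest at 1.12%.

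Over the 14 libraries the Pearson correlation of log2 CPM between members had a median of 0.896 over 666 pairs, with a lowest of 0.398 and a highest of 0.986. These pairs share libraries and scaling, so the values describe the class and carry no test. The first principal component held 82.7% of the members' variance, and 87.8% without Rps6. After the shared score was subtracted, the median SD of a gene was 0.19 log2 units, and 29 of the 37 genes had an SD under 0.3. The median SD of log2 CPM before subtraction was 0.62 for the members and 0.45 for the 11400 tested genes at least as abundant as the lowest member, Rpl30.

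Rps3, a small subunit protein at the mRNA entry channel, followed the score most closely, with a residual SD of 0.0839. Rpl18, with 0.0933, and Rpl5, a protein that carries the 5S ribosomal RNA, with 0.0934, came next. Rps6, at 1.11, and Rpl22, at 0.514, followed it least. Rpl30 had a residual SD of 0.417, but only 3.25 to 11.1 CPM.

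**Figure D2:**
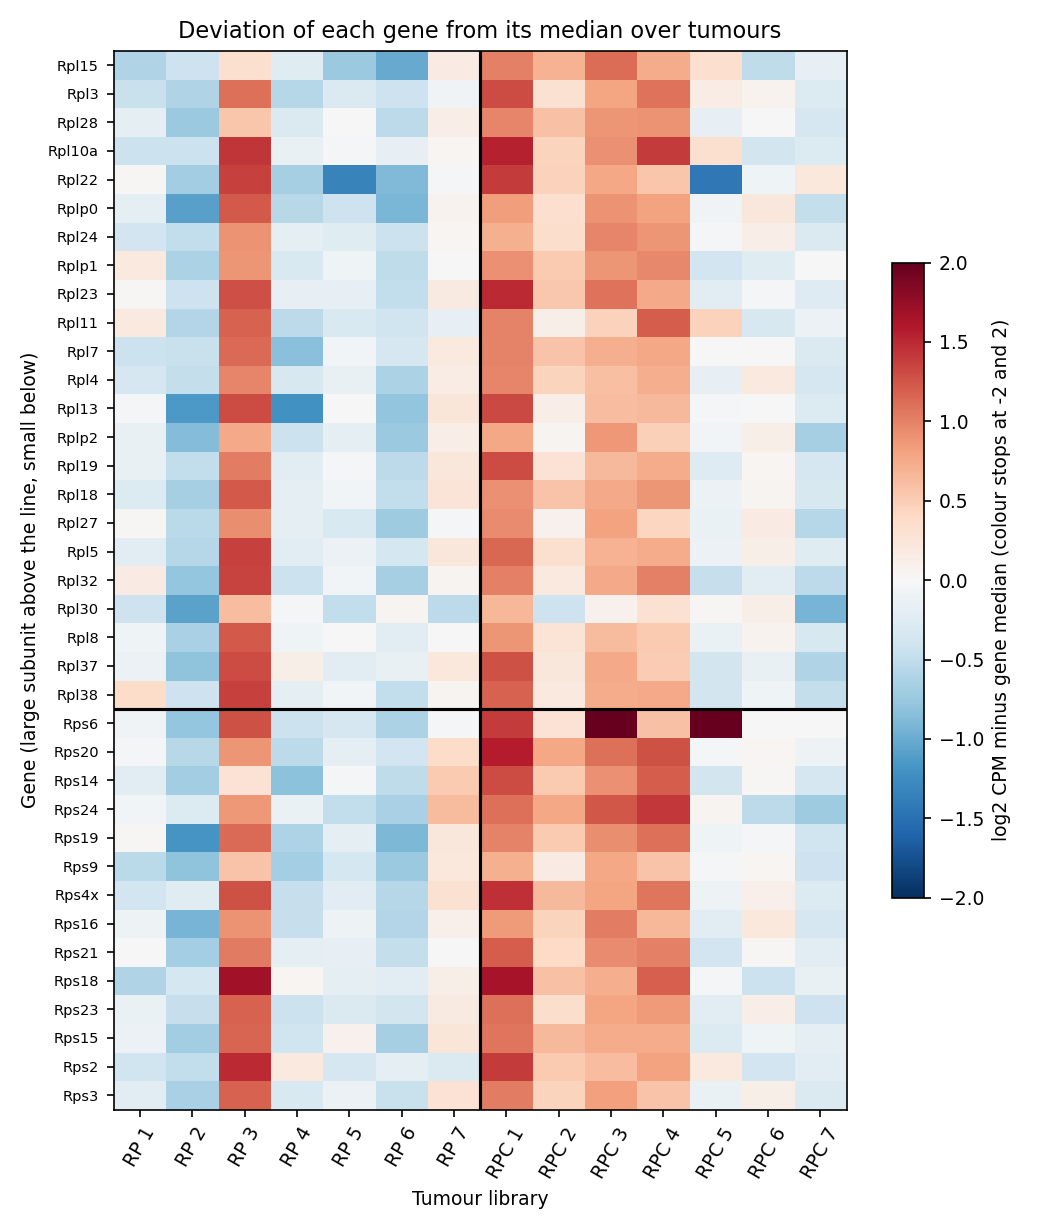
Deviation of each gene (rows, large subunit above the line and small subunit below) from its median over the 14 libraries (columns), in log2 units with colour stopping at -2 and 2. Whole columns are red in RP tumour 3 and RPC tumours 1, 3 and 4 and blue in RP tumours 2 and 6; single cells that break the column are Rps6 in RPC tumours 3 and 5 and Rpl22 in RP tumour 5 and RPC tumour 5.

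Levels between members were compared per kilobase of transcript, with lengths from a single GENCODE transcript per gene. The acidic stalk proteins Rplp1 and Rplp0, which recruit translation factors, had the highest medians, at 1185 and 959 CPM per kilobase. Rps15, a protein of the small subunit head, followed at 913. Rpl30 was lowest at 12.2, then Rps20 at 63.6 (with a transcript model of 3706 bases, long for this class) and Rps23, a decoding centre protein, at 204. Ribosomal protein genes have many processed pseudogenes, and reads that align to more than one place are not counted to a gene, so levels between members, and the low level of Rpl30 in particular, are uncertain.

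Large and small subunit genes moved by nearly the same amount in each tumour. The large subunit score minus the small subunit score lay between -0.14 (tumour 7) and 0.19 (tumour 4) in RP tumours, with a mean of 0.03 ± 0.10 (SD, n = 7). In RPC tumours it lay between -0.19 (tumour 2) and -0.0054 (tumour 6), with a mean of -0.10 ± 0.08 (SD, n = 7). All 7 RPC tumours were below the RP median of 0.04, and the groups overlapped because RP tumours 1 and 7 were also below 0. The mean difference between genotypes, -0.13, was small beside the 1.8 range of the score itself.

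**Figure D3:**
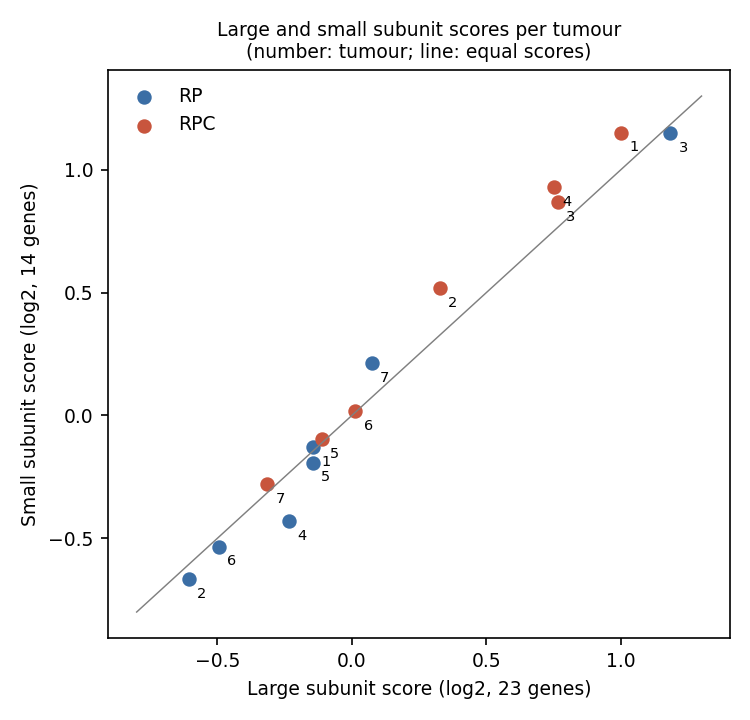
Small subunit score (vertical axis, 14 genes, log2 units) against large subunit score (horizontal axis, 23 genes, log2 units), 1 numbered point per tumour, RP in blue and RPC in red; the line marks equal scores. All 14 tumours lie within 0.20 of the line, and all 7 RPC tumours lie above it.

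The genotypes were then compared gene by gene. All 37 genes had a higher fitted level in RPC than in RP tumours, and none passed the test for a single gene. The edgeR quasi-likelihood test with Benjamini-Hochberg adjustment over 14804 genes called 0 of the 37 at an adjusted p under 0.05, against 2.21% of all genes called in either direction (1.09% higher and 1.12% lower). The lowest adjusted p was 0.102 and the highest 0.796. Limma-voom called 0 as well, against 503 of the 14804 genes in either direction. DESeq2 called Rpl15 and Rps6 (DESeq2 adjusted p = 0.0321 and 0.00976), but it called 1424 of the 14804 genes in either direction, against 327 by edgeR. At an unadjusted p under 0.05, 6 of the 37 were higher (Rpl15, Rps6, Rps20, Rps14, Rpl28 and Rps9), against 10.3% of all genes higher at that level. A positive log2 fold change was fitted for 50.2% of all genes. Since the 37 genes share their tumours and move together, 37 positive signs are not 37 separate observations. In none of the 37 were the 7 RPC tumours all above the 7 RP tumours, a pattern found in 0.513% of genes.

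The median log2 fold change was 0.45 over the 37 genes and 0.0021 over all tested genes. For the 23 large subunit genes the median was 0.43, and for the 14 small subunit genes 0.53, or 0.51 without Rps6. The mean score was -0.07 ± 0.60 in the RP and 0.38 ± 0.52 in the RPC group (mean ± SD, n = 7), a difference of 0.45, or 1.37-fold, smaller than either SD. Of the 7 RPC tumours, 6 were above the RP median score. The summed share of gene counts was 1.76 ± 0.779% in the RP and 2.60 ± 1.005% in the RPC group, again with 6 of 7 above the RP median. All 7 RPC scores lay inside the RP range, whose upper end was RP tumour 3; the other 6 RP tumours reached at most 0.13.

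The number of genes near the threshold moved most when RP tumour 3 was left out. Without RP tumour 3 the median log2 fold change was 0.76 and 33 of the 37 genes were higher at an unadjusted p under 0.05, against 14.8% of all genes. Only Rpl3, a core protein near the peptidyl transferase centre, was then called (log2 fold change 0.97, SE 0.25 and adjusted p = 0.0394 by edgeR), against 3.21% of all genes called higher. Without RPC tumours 3, 5 and 6, which was decided once their marker levels were known, the median was 0.56 with 0 genes called, against 0.0195% of all genes called higher, and 4 at an unadjusted p under 0.05, against 4.83% of all genes. The score difference was 0.67 without RP tumour 3 and 0.58 without the 3 RPC tumours, against 0.45 with all 14 libraries.

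Among the stalk proteins, which bind elongation factors at the large subunit, Rplp0 ran from 615 to 3035 CPM in RP tumours (median 974) and from 932 to 2426 CPM in RPC tumours (median 1634). RP tumour 3 was the highest of all 14 and the groups overlapped (log2 fold change 0.50 with SE 0.35, adjusted p = 0.422 by edgeR). Rplp1 ran from 381 to 1093 CPM in RP tumours (median 556) and from 453 to 1154 CPM in RPC tumours (median 854), with RPC tumour 4 the highest (log2 fold change 0.46 with SE 0.28, adjusted p = 0.366 by edgeR). Rplp2 ran from 119 to 368 CPM in RP tumours (median 189) and from 137 to 396 CPM in RPC tumours (median 235) (log2 fold change 0.42 with SE 0.27, adjusted p = 0.390 by edgeR). For all 3 the lowest value was in RP tumour 2.

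Rpl5 and Rpl11 form a particle with 5S ribosomal RNA and, when free, bind the p53 regulator Mdm2; Trp53 is deleted in both genotypes here. Rpl5 ran from 402 to 1551 CPM in RP tumours (median 517) and from 509 to 1326 CPM in RPC tumours (median 753). RP tumour 3 was above every RPC tumour and stood clear of the other RP tumours (log2 fold change 0.29 with SE 0.31, adjusted p = 0.607 by edgeR). Rpl11 ran from 422 to 1434 CPM in RP tumours (median 514) and from 506 to 1469 CPM in RPC tumours (median 870.0), with RPC tumour 4 the highest (log2 fold change 0.45 with SE 0.31, adjusted p = 0.425 by edgeR).

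Among other large subunit proteins, Rpl3 ran from 488 to 1602 CPM in RP tumours (median 559.5) and from 616 to 1828 CPM in RPC tumours (median 914). All 7 RPC tumours were above the RP median, but RP tumour 3 was above 6 of them (log2 fold change 0.64 with SE 0.32, adjusted p = 0.261 by edgeR). Rpl15, a core protein of the large subunit, ran from 203 to 507 CPM in RP tumours (median 305) and from 286 to 888 CPM in RPC tumours (median 661). It had the largest log2 fold change after Rps6 (log2 fold change 0.86 with SE 0.27, adjusted p = 0.102 by edgeR), and in RP tumour 3, at 507 CPM, it was 0.85 log2 units below the shared score. Rpl28 ran from 260.0 to 634 CPM in RP tumours (median 379) and from 343 to 850.2 CPM in RPC tumours (median 653) (log2 fold change 0.59 with SE 0.25, adjusted p = 0.193 by edgeR), and 6 of 7 RPC tumours were above the RP median.

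Rpl13 ran from 277 to 1581 CPM in RP tumours (median 619) and from 529 to 1591 CPM in RPC tumours (median 700.2), with its lowest value in RP tumour 4, 0.90 log2 units under the shared score (log2 fold change 0.42 with SE 0.38, adjusted p = 0.541 by edgeR). Rpl24, a protein at the interface of the subunits, ran from 253 to 662 CPM in RP tumours (median 299.6) and from 290.1 to 702 CPM in RPC tumours (median 453) (log2 fold change 0.49 with SE 0.26, adjusted p = 0.281 by edgeR). Rpl8, near the peptidyl transferase centre, ran from 403 to 1474 CPM in RP tumours (median 593) and from 503 to 1153 CPM in RPC tumours (median 760.2). It had a small difference (log2 fold change 0.19 with SE 0.27, adjusted p = 0.713 by edgeR) and RP tumour 3 was above every RPC tumour. Rpl30 ran from 3.25 to 10.8 CPM in RP tumours (median 5.20) and from 3.62 to 11.1 CPM in RPC tumours (median 7.43) (log2 fold change 0.24 with SE 0.31, adjusted p = 0.687 by edgeR).

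In the small subunit, Rps3 ran from 458 to 1640.2 CPM in RP tumours (median 620.0) and from 589 to 1462 CPM in RPC tumours (median 984) (log2 fold change 0.34 with SE 0.30, adjusted p = 0.520 by edgeR), with RP tumour 3 above every RPC tumour. Rps19 and Rps24 are needed for maturation of the 18S ribosomal RNA and are mutated in Diamond-Blackfan anaemia. Rps19 ran from 116 to 574 CPM in RP tumours (median 231) and from 199 to 561 CPM in RPC tumours (median 374) (log2 fold change 0.56 with SE 0.35, adjusted p = 0.371 by edgeR). Rps24 ran from 245 to 703 CPM in RP tumours (median 352) and from 236 to 1025 CPM in RPC tumours (median 661), and its lowest value of all 14 was in RPC tumour 7 (log2 fold change 0.60 with SE 0.36, adjusted p = 0.350 by edgeR).

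Rps20, a protein of the small subunit head, ran from 161 to 435 CPM in RP tumours (median 206) and from 220.5 to 698 CPM in RPC tumours (median 404). All 7 RPC tumours were above the RP median (log2 fold change 0.77 with SE 0.31, adjusted p = 0.171 by edgeR). Rps14, a protein of the platform, ran from 297 to 751 CPM in RP tumours (median 449) and from 407 to 1301 CPM in RPC tumours (median 755). RP tumour 7, not RP tumour 3, was its highest RP value, the only such case among the 37 genes (log2 fold change 0.74 with SE 0.31, adjusted p = 0.183 by edgeR). Rps15 ran from 281 to 1020.2 CPM in RP tumours (median 419.8) and from 376 to 955 CPM in RPC tumours (median 716) (log2 fold change 0.38 with SE 0.31, adjusted p = 0.493 by edgeR), and Rps23 ran from 138 to 433 CPM in RP tumours (median 155) and from 142 to 407 CPM in RPC tumours (median 243) (log2 fold change 0.39 with SE 0.30, adjusted p = 0.477 by edgeR).

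The 16 members not described singly were Rpl4, Rpl7, Rpl10a, Rpl18, Rpl19, Rpl23, Rpl27, Rpl32, Rpl37, Rpl38, Rps2, Rps4x, Rps9, Rps16, Rps18 and Rps21. Their log2 fold changes ran from 0.16 for Rpl38 (edgeR adjusted p = 0.796), the lowest of the 37, to 0.56 for Rps9 (edgeR adjusted p = 0.225). In Rpl32, Rpl37 and Rpl38 only 4 of 7 RPC tumours were above the RP median, and in Rpl7 and Rps9 all 7 were.

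Rps6 left the shared pattern in RPC tumours. It encodes the small subunit protein that S6 kinases phosphorylate downstream of mTOR. In RP tumours 1 to 7 it was at 665, 406, 1689, 519, 554, 450.0 and 677 CPM. In RPC tumours 1 to 7 it was at 1839.9, 851, 13885, 1046, 3171, 699 and 697 CPM. Tumours 3 and 5 were far above the other 12, and the other 5 RPC tumours lay within the RP range except tumour 1, just above RP tumour 3.

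Relative to the shared score, Rps6 was 3.53 log2 units high in RPC tumour 3 and 2.29 high in RPC tumour 5, and within -0.19 to 0.33 in the other 12. The fitted difference between genotypes was therefore large and imprecise (log2 fold change 2.16 with SE 0.69, adjusted p = 0.102 by edgeR). It was 0.65 without RPC tumours 3, 5 and 6 (edgeR adjusted p = 0.561) and 0.97 without RPC tumour 3 alone (edgeR adjusted p = 0.255). All 10 nearest expressed neighbours on chromosome 4, by their order in RefSeq, were read in the same tumours. Only genes with a mean log2 CPM above 5 were taken as expressed, so less abundant genes can lie between. Rraga, a Rag GTPase that signals amino acids to mTOR, was 3.50 above its median in RPC tumour 3 and 2.24 above in RPC tumour 5. Haus6, a spindle protein, was 3.90 and 1.97 above, and Dennd4c, the nearest neighbour on that side, 2.70 and 1.64 above. Not all neighbours were high. Plin2, a lipid droplet protein gene between Haus6 and Dennd4c, was at 0.92 and 0.70, and at 1.04 in RPC tumour 2. Slc24a2, the nearest on the other side, was at 1.20 and 1.40, Cdkn2a at 0.43 and -0.81, and Elavl2 at 0.71 and 0.25. Mllt3 and Klhl9, on the same side as Slc24a2, were 5.16 and 3.26 above in RPC tumour 3 but at -0.58 and -1.06 in RPC tumour 5. Sh3gl2 was at -0.064 and 2.25, the reverse order. Nfib, a transcription factor gene also on chromosome 4 and chosen here after its values were seen, was at 2404 and 1781 CPM in these tumours and at 53.8 to 704 CPM in the other 12. DNA copy number was not measured, and its part in these values was not tested.

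Rpl22, a large subunit protein not needed for translation itself, was low in single tumours of both genotypes. It ran from 117 to 763 CPM in RP tumours (median 188) and from 110.2 to 786 CPM in RPC tumours (median 408) (log2 fold change 0.52 with SE 0.43, adjusted p = 0.508 by edgeR). The low values were 117 CPM in RP tumour 5 and 110.2 CPM in RPC tumour 5, 1.16 and 1.32 log2 units under the shared score. The median of its 10 chromosome 4 neighbours was also low in these tumours, at -0.78 and -1.31; Icmt, the nearest on 1 side, was at -0.97 and -1.50, and Chd5, the nearest on the other, at -0.053 and -0.58. Rpl22l1, the paralog of Rpl22 on another chromosome, was at 51.4 CPM in RP tumour 5 and 80.0 CPM in RPC tumour 5. RPC tumour 4 had 53.01 CPM, with Rpl22 near the shared score, and the other 11 lay between 12.1 and 43.1 CPM.

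**Figure D4:**
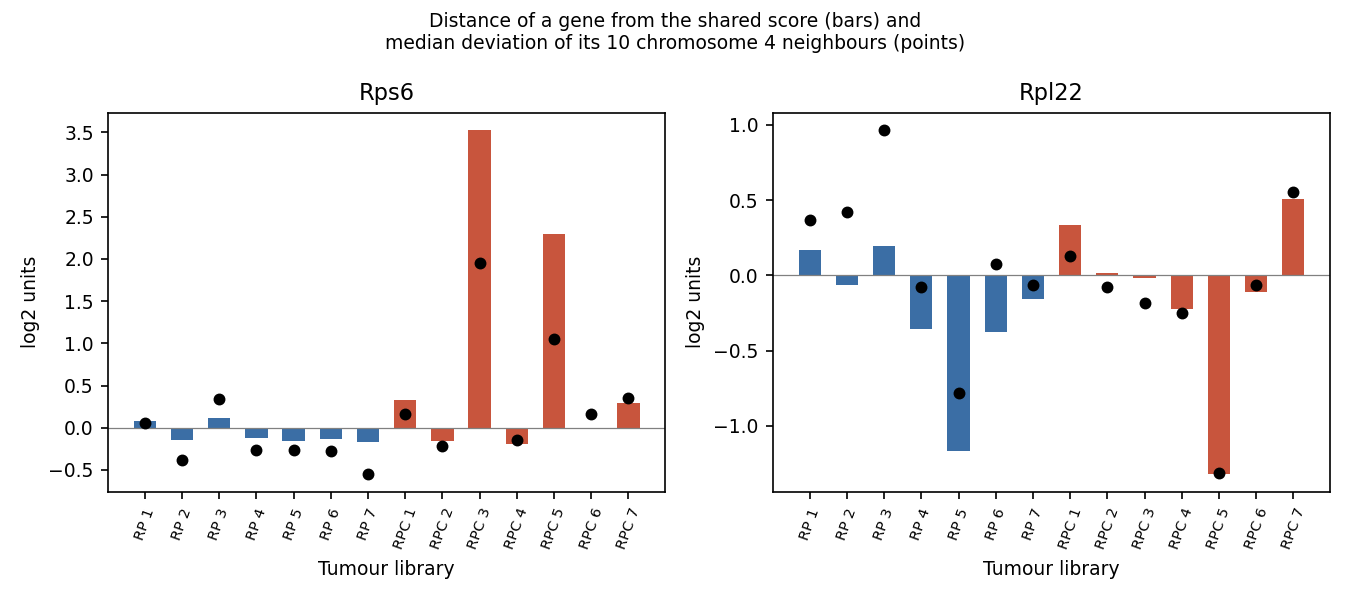
Distance of Rps6 (left) and Rpl22 (right) from the shared score in each tumour (bars, log2 units, RP in blue and RPC in red), with the median deviation of their 10 nearest expressed chromosome 4 neighbours (points, log2 units). Rps6 reaches 3.53 and 2.29 in RPC tumours 3 and 5, where neighbours reach 1.95 and 1.05, and Rpl22 falls to -1.16 and -1.32 in RP tumour 5 and RPC tumour 5, where neighbours are at -0.78 and -1.31.

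Over the 37 genes and 14 tumours, a distance of at least 0.8 log2 units from the score was found 8 times. The 4 cases outside Rps6 and Rpl22 were Rpl13 in RP tumour 4 (-0.90), Rps14 in RP tumour 3 (-0.88), Rpl30 in RPC tumour 2 (-0.86) and Rpl15 in RP tumour 3 (-0.85). The medians of their 10 neighbours were at -0.76, -0.75, -0.32 and -0.46 in the same tumours.

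The other genes of the ribosome moved with the members. All 41 tested cytosolic ribosomal protein genes outside the set were fitted higher in RPC tumours, with a median log2 fold change of 0.47 and none called, and the score over these genes had a Spearman correlation of 0.996 with that of the members over the 14 libraries, which share depth and scaling. The smallest p in that list was that of Fau, which encodes a ubiquitin-like protein fused to Rps30, at 249.9 ± 83.0 CPM in the RP and 458 ± 145 CPM in the RPC group (mean ± SD, n = 7) (log2 fold change 0.87 with SE 0.24, adjusted p = 0.0684 by edgeR). The laminin receptor Rpsa, its most abundant member, was at 1212 ± 709 CPM in the RP and 1512 ± 525 CPM in the RPC group (mean ± SD, n = 7) (log2 fold change 0.32 with SE 0.33, adjusted p = 0.591 by edgeR). Of 5 tested paralogs of ribosomal protein genes 4 were positive, 0 were called and the median was 0.16.

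Other TOP mRNA genes encode mostly elongation and initiation factors. All 17 tested were positive, 0 were called and the median was 0.41. Eef1g, an elongation factor subunit, had the smallest p in that list (log2 fold change 0.83 with SE 0.23, adjusted p = 0.0681 by edgeR). Eef1a1, the abundant factor that brings aminoacyl-tRNA to the ribosome, was at 3970.4 ± 1377 CPM in the RP and 5776 ± 1143 CPM in the RPC group (mean ± SD, n = 7) (log2 fold change 0.54 with SE 0.23, adjusted p = 0.198 by edgeR).

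Ribosome biogenesis factors had a lower median, 0.26, with 47 of 51 positive. Of the 51, 1 was called higher and 1 lower, against 1.09% and 1.12% of all tested genes. Nolc1, a nucleolar phosphoprotein, rose (log2 fold change 1.13 with SE 0.22, adjusted p = 0.0244 by edgeR), and Utp20, a factor of the small subunit processome, fell (log2 fold change -1.36 with SE 0.28, adjusted p = 0.0271 by edgeR). Npm1, the most abundant, was at 559 ± 378 CPM in the RP and 920.0 ± 469 CPM in the RPC group (mean ± SD, n = 7) (log2 fold change 0.72 with SE 0.36, adjusted p = 0.270 by edgeR). Of 76 mitochondrial ribosomal protein genes 68 were positive with a median of 0.25. Mrpl49 and Mrpl43 were called higher and none lower, against the same shares of all tested genes. Among 18 genes of mTOR and S6 kinase signalling 9 were positive, 0 were called and the median was -0.02. Of 4 tested genes of the Mdm2 and p53 arm 2 were positive and 0 were called, with a median of 0.05.

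The chromosome of these genes is given because many calls of the comparison lie on chromosome 19, chosen here after the values were seen. Of the 161 genes called higher in RPC tumours, 77 were on chromosome 19, which holds 454 of the 13283 tested genes with a RefSeq chromosome and had a median log2 fold change of 0.45. Fau, Eef1g, Nolc1, Mrpl49, Mrpl43 and Mrpl16 lie there. None of the 37 members does, and their median of 0.45 compares with -0.01 for the genes on other chromosomes. With chromosome 19 left out, and only genes with a RefSeq chromosome counted, the medians were 0.29 for other TOP mRNA genes (0.41 before), 0.47 for other cytosolic ribosomal proteins, 0.25 for biogenesis factors and 0.24 for mitochondrial ribosomal proteins.

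By Spearman correlation with the score over the 14 libraries, 6982 genes with a mean log2 CPM above 5 were ranked. The members and all symbols that begin with Rpl, Rps, Mrpl, Mrps or Gm were left out. The highest were Eef1b2 (0.960), Eef1a1 and Naca (0.956 each), Gnb2l1 (0.952), Nhp2 (0.947), Phb2 (0.943), Polr1d (0.934) and Eef2 (0.921). Naca is a chaperone of nascent chains, Gnb2l1 encodes the ribosomal scaffold Rack1, Nhp2 is a small nucleolar RNA protein and Polr1d a subunit of RNA polymerases I and III. The lowest were Adrbk2 (-0.903), Prnp (-0.899), Agtpbp1 (-0.895), Arc (-0.886), Slc22a23 (-0.868), Lonrf3 (-0.864), Ptpn13 (-0.859) and Rab3d (-0.855). Prnp encodes the prion protein and Arc a neuronal immediate early protein. These are the ends of a ranking over the same 14 libraries and carry no test.

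The MYC family was read beside the score, also after its values were seen. Myc was at 653 CPM in RP tumour 3, the tumour of the highest score, and at 8.92 to 49.7 CPM in the other 13. Mycn was at 521 CPM in RP tumour 5, whose score was -0.18, and at most 34.0 CPM elsewhere. Mycl1 was at 5872, 1344, 2869.6, 4501 and 6217 CPM in RPC tumours 1, 2, 3, 4 and 6. It was at 314 and 503 CPM in RPC tumours 5 and 7 and at 12.5 to 315 CPM in RP tumours. The 4 RPC tumours of the highest scores, 1, 3, 4 and 2, were among the 5 with high Mycl1, and RPC tumour 6, with the most Mycl1, had a score of 0.02. All 5 tumours with high Mycl1 were RPC tumours. The part of the MYC family in the score was not tested.

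**Figure D5:**
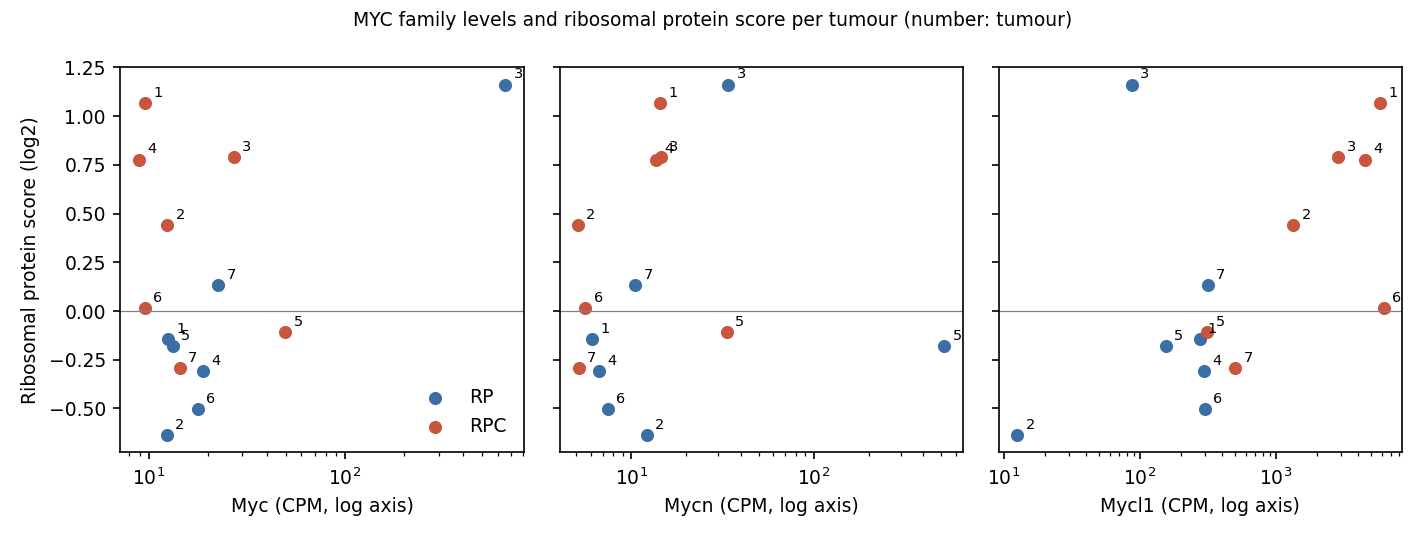
Ribosomal protein score (vertical axis, log2 units) against the level of Myc, Mycn and Mycl1 (horizontal axes, CPM on a log axis), 1 numbered point per tumour, RP in blue and RPC in red. RP tumour 3 has the highest score and Myc at 653 CPM. The score is -0.18 in RP tumour 5, with the most Mycn, and 0.02 in RPC tumour 6, with the most Mycl1.

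Some library measures varied along with the score. Reads with more than 1 alignment made up 8.44 to 11.2% of a file, with 11.2% in RPC tumour 3, 10.8% in RPC tumour 1, 10.7% in RPC tumour 4 and 10.3% in RP tumour 3, but also 10.3% in RP tumour 1, whose score was -0.14, and 10% in RPC tumour 7, whose score was -0.29. The Spearman correlation of this percentage with the score was 0.636 (n = 14). Transcript length was read in quartiles of 7015 genes with a mean log2 CPM above 5, leaving out symbols that begin with Rpl or Rps. Of the 37 genes 36 were as short as the shortest quartile. The median deviation of the shortest quartile minus that of the longest lay between -0.13 and 0.26 over the libraries, with a Spearman correlation of 0.648 with the score (n = 14), and was highest in RPC tumour 3. The part that multiple alignment and transcript length have in the score was not tested.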

How the data were processed

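Per the labels' protocols, poly(A) RNA was selected with oligo dT beads for NEBNext Ultra libraries. Each deposited file holds raw read counts per gene, not normalized. The submitters' processing notes name TopHat2 2.0.12, HTSeq 0.6.1, bcl2fastq 1.8.2 and mm9. Strand, gene annotation and settings: not given in the sources used here. The 5 rows that name no gene were left out of library sizes: 15.1 to 20.5% of counts per file were outside genes, 8.44 to 11.2% aligned more than once and 0.883 to 1.09% were ambiguous. No 2 libraries of a genotype were the same library counted again (chi-square per degree of freedom at least 62.1 over 42 pairs). That check cannot tell whether libraries came from the same tumour or the same mouse.

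Tests used edgeR 4.0.16 (R 4.3.3). The filterByExpr limits were a count of 10 and a total of 15, scaling was by TMM, and the test was the quasi-likelihood F test of all 7 RPC against all 7 RP libraries with no covariate. P-values were adjusted by Benjamini-Hochberg over 14804 genes, with calls under 0.05. Each SE is the log2 fold change over the root of F. Scores used log2 CPM with a prior count of 2. The procedure was also run on simulated counts drawn separately for each gene, so that run does not cover genes that move together. Alternatives were other scalings and filters, DESeq2 1.42.0, limma-voom (limma 3.58.1), a replicate block, a term for non-tumour markers and leaving out libraries.

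The members and all gene lists were chosen with earlier results of these data known. Named genes are the stalk and 5S particle members, Rpl3, Rps3, Rps6, Rps19 and Rps24, the members of smallest p and extreme spread or per-length level, and from other lists those with the smallest p or highest CPM. RefSeq tables of GRCm38.p6 gave chromosome, gene order and promoter windows, and GENCODE vM21 gave transcript lengths. Macrophage, fibroblast, endothelial, T and NK cell, and small cell lung cancer marker lists had 0 called genes; median log2 fold changes were -0.93, -0.69, -0.73, -1.21 and -0.17. The small cell lung cancer list holds 9 genes, and 1 further gene chosen for it is not reported here.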

Additional observations from a re-analysis of the deposited data

Results flagged for a closer look

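RP tumour 3 was far from the other 6 RP tumours in its group: the gap to the nearest, divided by the group's range, exceeded Dixon's critical value for 7 samples, taken on the log2 scale for the score and for single genes, whose values are printed as CPM, and on the percentage itself for the summed share. The value was exceeded for the ribosomal protein score, at 1.16 against at most 0.13 in the other RP tumours, but only just, with a ratio of 0.573. It was also exceeded for the summed share of gene counts, at 3.42% against at most 1.97% (ratio 0.645). Among members described singly it was exceeded for Rpl5 at 1551 CPM, Rpl3 at 1602 CPM, Rps6 at 1689 CPM, Rpl8 at 1474.5 CPM, Rpl24 at 662 CPM and Rps23 at 433 CPM. Over all 37 genes and both genotypes, 11 of 74 groups exceeded the value, where chance gives about 1 in 20, and the genes share their tumours. Myc was at 653 CPM in the same tumour; its part in these values was not tested.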

How the results depend on the processing

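The shift kept its direction under every alternative that was run. Over 24 alternatives the median log2 fold change of the 37 genes lay between 0.33 and 0.76 (0.45 as reported). The scores were taken under 19 alternatives. There the score difference lay between 0.35 and 0.67, the large minus small difference between -0.18 and -0.09, and the score range between 1.61 and 1.79. Over 17 alternatives the difference in summed share lay between 0.59 and 1.12 percentage points. All 37 genes were positive in each of the 24 fits, except 35 without RPC tumour 1. No gene was called lower in any. The number called higher was 0 except 2 with DESeq2 (Rpl15 and Rps6), which called 1424 of 14804 genes in either direction. It ranged from 0 to 1 when single libraries were left out, with Rpl3 called without RP tumour 3, against 3.21% of all genes called higher. The cause was not tested. The count of the 37 at an unadjusted p under 0.05, 6 as reported, was 33 without RP tumour 3, against 14.8% of all genes higher at that level. It was 10 without RPC tumour 7 (11.6% of all genes) and 3 without RPC tumour 3 (8.33% of all genes). It was 2 without RP tumours 2, 4 or 6 (8.36, 8.55 and 7.75% of all genes) or RPC tumours 1 or 4 (9.85 and 9.2% of all genes). With the non-tumour marker term the median was 0.52 and Rps6 was at 0.64 (edgeR adjusted p = 0.765).

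The genotypes share tumour numbers in the labels, so a fit with the number as a replicate block was tried. It called 0 of the 37 genes, against 74 of 14804 genes in either direction, with a median log2 fold change of 0.49. At an unadjusted p under 0.05, 7 of the 37 were higher, against 9.74% of all genes. Rps6 was at 1.38, close to its 1.39 in limma-voom with no block, against 2.16 as reported. Same-numbered tumours correlated at -0.05 to 0.32 in their deviations from the group means, over 0.1 for 3 of 7 pairs. With 7 candidates in the other genotype for each library, 5 of 14 libraries correlated best with their own number. The main fit did not take the numbers as pairs, and whether same-numbered tumours share a source was not tested.

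Unique counting can lower genes with near-identical copies; Rpl30 was at no more than 11.1 CPM. With 7 tumours a genotype, the score had an SD of 0.60 in RP and 0.52 in RPC tumours, and the mean shift of 0.45 was smaller than either. An SD describes single tumours and not the difference of the means, and the score was not tested between genotypes.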

Other observations

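Paralogs of ribosomal protein genes followed the class loosely. Rpl7l1, which resembles the large subunit protein Rpl7, was at 159 CPM in RP tumour 3 and 149 CPM in RPC tumour 1, the tumours of the highest scores, and between 51.3 and 107 CPM in the other 12. Rpl36al ran from 100.2 to 251 CPM and Rps27l, a p53-responsive relative of Rps27, from 52.2 to 129 CPM. The Spearman correlation of the paralog score with the ribosomal protein score was 0.684 over the 14 libraries, against 0.996 for the other cytosolic ribosomal protein genes, 0.947 for other TOP mRNA genes, 0.864 for biogenesis factors and 0.732 for mitochondrial ribosomal proteins. These values share libraries and scaling, and the lists differ in size, so they are given as a description.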
